A study of Mus musculus with 89 samples.

Results

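The 10 genes described here build and read silent chromatin marked by methylation of histone H3 at lysine 9 (H3K9): the corepressor genes Trim28, Setdb1 and Atf7ip, the zinc finger genes Zfp57 and Zfp809, the methyltransferase genes Ehmt1 and Ehmt2, the chaperone genes Atrx and Daxx, and Cbx5. They were taken by symbol from the deposited table of RNA-seq counts, in which all 10 were found among 26276 rows with a gene name. The libraries came from V6.5 cells, a mouse embryonic stem cell line, grown with LIF and inhibitors of MEK and GSK3, which hold the cells in the naive state. All 6 libraries, controls included, carry H2afz-FKBP-V, a tag on the gene of the histone variant H2A.Z.1 through which a dTAG degrader molecule directs the protein to the proteasome. The 3 control libraries are compared with 3 libraries labelled dTAG, and the question is which transcript levels change once H2A.Z.1 is depleted. For these RNA libraries the sources used here do not give the dose or duration of treatment, nor whether the libraries came from separate cultures or from 1 clone. P-values therefore measure the spread between these libraries, which may be technical.

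In stem cells this machinery keeps endogenous retroviruses silent and guards imprints. Zinc finger proteins with a KRAB domain bind chosen DNA sequences and recruit TRIM28, which brings in the methyltransferase SETDB1 to place trimethylation on H3K9, and ATF7IP keeps SETDB1 stable and in the nucleus. EHMT1 and EHMT2 (GLP and G9a) work as a pair that places mono- and dimethylation on the same residue, HP1 proteins such as that of Cbx5 bind the methylated histone, and ATRX with DAXX deposits the histone variant H3.3 in heterochromatin. Rows for retroviral elements are not analysed here.

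The libraries differed in depth and content, and each result below is given library by library for that reason. Counts in named genes ran from 14091745 to 15652795 in the controls and came to 12907095, 2131648 and 1812405 in dTAG replicates 1, 2 and 3. Genes of olfactory and vomeronasal receptors, which stem cells do not use, had a count in 10.9% to 18.2% of 1462 members in the controls and in 23.5%, 71.5% and 97.0% in the dTAG libraries (the last with an exact Clopper-Pearson 95% interval of 96.0% to 97.8%, for counting error only). The 8 naive stem cell markers summed to 2334 to 2459 CPM (counts per 1000000 counts in named genes) in the controls, with none at 0, and to 2585, 1537 and 470.1 CPM in the dTAG libraries. Summed levels of 6 fibroblast markers ran from 18.02 to 29.98 CPM across controls against 19.8, 86.3 and 275 CPM with dTAG. Col3a1, a fibroblast collagen, was at 0 in the controls and in dTAG replicate 1, and Neurod1, a neuronal transcription factor, was at 0 in the controls. Markers of primitive endoderm (5 genes, 12.6 to 18.2 CPM summed), trophoblast (5 genes, 27.6 to 29.2 CPM) and neuroectoderm (5 genes, 19.03 to 20.7 CPM) were likewise low in the controls, and reached 278, 209 and 256 CPM in dTAG replicate 3. Mitochondrial ribosomal RNA took 6.84% to 7.13% of counts in named genes in the controls and 6.94%, 4.94% and 0.165% by dTAG replicate. By these measures dTAG replicates 2 and 3 stood apart from the other 4 libraries, and the part of these differences in the values below was not tested. H2afz itself measured 78.8 to 95.7 CPM across controls against 107, 56.3 and 35.9 CPM with dTAG, which does not check depletion because the degrader acts on the protein.

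In RefSeq (GRCm38.p6) Zfp57 spans chr17:37001163-37010729, Ehmt2 chr17:34898463-34914073, Daxx chr17:33909404-33915590 and Atrx chrX:105797615-105929372. Promoter sequence is shown for these 4 genes, chosen after their values were seen: by CPM in dTAG replicate 3, Daxx and Ehmt2 were above every control and Atrx and Zfp57 far below. The window is the 250 bases before the most upstream start site listed for each gene in the RefSeq promoter set (build GRCm38.p6). Each line runs 5′ to 3′ along the gene with CpG dinucleotides in capitals, and stops where the annotated span of the gene begins, which leaves 239 bases for Ehmt2 and 209 for Daxx.
Zfp57, chr17:37000913-37001162, plus strand: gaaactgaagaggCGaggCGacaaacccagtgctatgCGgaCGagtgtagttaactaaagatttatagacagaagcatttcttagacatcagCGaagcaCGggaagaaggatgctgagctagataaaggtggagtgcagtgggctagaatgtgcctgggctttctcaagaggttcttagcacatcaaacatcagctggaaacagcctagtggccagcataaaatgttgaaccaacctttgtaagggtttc
Atrx, chrX:105929373-105929622, minus strand: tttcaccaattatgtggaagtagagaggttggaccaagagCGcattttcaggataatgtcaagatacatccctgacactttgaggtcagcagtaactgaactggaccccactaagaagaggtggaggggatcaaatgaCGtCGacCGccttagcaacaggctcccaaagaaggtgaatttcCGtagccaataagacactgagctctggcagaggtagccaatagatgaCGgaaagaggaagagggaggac
Ehmt2, chr17:34898224-34898462, plus strand: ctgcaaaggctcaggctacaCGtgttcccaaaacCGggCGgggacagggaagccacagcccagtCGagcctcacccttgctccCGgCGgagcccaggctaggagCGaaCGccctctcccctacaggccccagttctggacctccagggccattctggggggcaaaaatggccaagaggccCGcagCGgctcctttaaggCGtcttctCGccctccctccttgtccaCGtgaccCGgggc
Daxx, chr17:33909195-33909403, plus strand: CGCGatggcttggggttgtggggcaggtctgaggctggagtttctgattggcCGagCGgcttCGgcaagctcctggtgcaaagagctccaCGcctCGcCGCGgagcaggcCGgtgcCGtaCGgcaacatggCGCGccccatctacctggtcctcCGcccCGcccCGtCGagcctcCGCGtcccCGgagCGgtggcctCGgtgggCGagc
Over the full 250 bases Zfp57 and Atrx each held 6 CpGs, Ehmt2 held 18 and Daxx 29. Of the genes not shown, Zfp809 held 11, Setdb1 13, Trim28 17, Atf7ip 20, Cbx5 22 and Ehmt1 26. Trim28 and Cbx5, with about as many CpGs as Ehmt2 or more, stood at 16.5% and 23.8% of the control mean in dTAG replicate 3 by CPM, and Ehmt2 at 122%. Over the windows of 27018 genes, 49.5% had fewer CpGs than Zfp57 or Atrx and 93.6% had fewer than Daxx. The median was 6 CpGs over all these windows. It was 17 over the 6628 windows at hand for the 8876 genes averaging 10 CPM or more over controls, among which are all 10 genes.

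Trim28, the corepressor that links the zinc finger proteins to the methyltransferase, was the most abundant of the 10 transcripts by CPM, a scale that does not correct for transcript length. Control replicates 1, 2 and 3 held 613, 569 and 611 CPM, and dTAG replicates 1, 2 and 3, in that order here and below, held 699, 442 and 98.8 CPM. The first dTAG library was thus above every control and the other two were below, so the groups overlapped around the controls. Setdb1, the methyltransferase of this complex, measured 147, 112 and 122 CPM across controls against 162, 105 and 96.0 CPM with dTAG. Here too dTAG replicate 1 was the highest library and dTAG replicate 3 the lowest, but the value in dTAG replicate 2 had a 95% counting interval of 91.8 to 119.8 CPM, which takes in the lowest control. Atf7ip, the partner of SETDB1, measured 99.97, 90.8 and 117 CPM across controls against 101, 74.1 and 72.3 CPM with dTAG. It stood within the controls in dTAG replicate 1 and below each of them in dTAG replicates 2 and 3, where its counting intervals ended at 86.6 and 85.8 CPM. As shares of their control means, Trim28, Setdb1 and Atf7ip stood at 16.5%, 75.7% and 70.5% in dTAG replicate 3 by CPM, so Trim28, the most abundant of the 3 in the controls, was at about the level of Setdb1 in that library.

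Both zinc finger genes were at about the level of Setdb1. Zfp57, whose protein binds methylated imprint control regions, was the steadiest of the pair, with 119.8, 126 and 127 CPM in the controls. Its dTAG libraries had 114, 101 and 28.1 CPM. It was the 1 gene of the 10 for which every dTAG library lay below every control, although in dTAG replicate 1 the counting interval of 108 to 119.8 CPM reached the lowest control. Zfp809, whose protein recognises the primer binding site of murine leukaemia viruses and related elements, measured 131, 99.3 and 122 CPM across controls against 119, 105 and 12.7 CPM with dTAG. By CPM it was within the control range in dTAG replicates 1 and 2 and had the lowest share of the 10 genes in dTAG replicate 3, at 10.8% of the control mean on 23 counts (95% counting interval 8.04 to 19.04 CPM). Zfp809 overlaps the span of another zinc finger gene, Zfp599, over 9954 bases in RefSeq, and reads of the 2 cannot be told apart where counting ignores the strand, which the sources used here leave unsaid.

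Ehmt1 and Ehmt2 parted from each other in dTAG replicates 2 and 3. Ehmt1 had 68.9, 67.3 and 66.3 CPM in the controls, the narrowest spread of the 10 genes (67.5 ± 1.34 CPM, SD, n = 3). The dTAG libraries had 72.5, 61.5 and 55.7 CPM, and by CPM their counting intervals each took in the nearest control. Ehmt2 measured 249, 244 and 199 CPM across controls against 222, 309 and 281 CPM with dTAG. By CPM it was within the controls in dTAG replicate 1 and above all of them in the other two, with counting intervals that started at 286 and 257 CPM.

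Atrx and Daxx, whose proteins together form the H3.3 chaperone, stood furthest apart of the partners. Atrx, the ATPase of the complex, measured 480.3, 426 and 419 CPM across controls against 479, 308 and 58.5 CPM with dTAG. It was level with the highest control in dTAG replicate 1 and stood at 13.2% of the control mean in dTAG replicate 3. Daxx, the histone-binding subunit, measured 42.4, 43.1 and 37.1 CPM across controls against 41.0, 59.6 and 83.9 CPM with dTAG. By CPM it was within the controls in dTAG replicate 1 and above all of them in dTAG replicate 2 (146% of the control mean) and dTAG replicate 3 (205%). Cbx5, which encodes HP1 alpha, measured 238, 231 and 213 CPM across controls against 257, 177 and 54.1 CPM with dTAG. Like Trim28, it was above the controls in dTAG replicate 1 and below them in the other two.

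**Figure D1:**
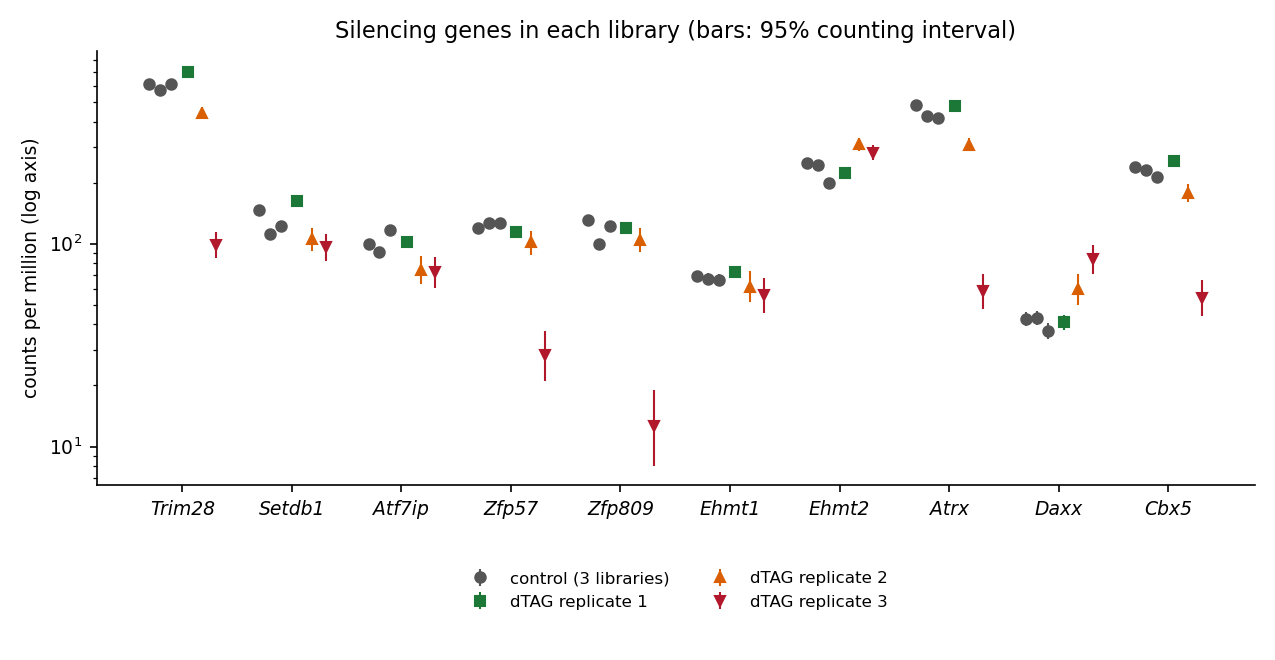
CPM (log axis) of each of the 10 genes in the 3 control libraries (grey circles) and dTAG replicates 1 (green squares), 2 (orange upward triangles) and 3 (red downward triangles), with exact Poisson 95% counting intervals as bars. Trim28, Zfp57, Zfp809, Atrx and Cbx5 are lowest in dTAG replicate 3, at 98.8, 28.1, 12.7, 58.5 and 54.1 CPM. Setdb1, Atf7ip and Ehmt1 are lowest there too, at 96.0, 72.3 and 55.7 CPM, nearer to their controls. Daxx is highest there at 83.9 CPM (with TMM scaling it lies below its controls).

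These positions can be read against those of all genes. In dTAG replicate 1, 4 of the 10 genes (Trim28, Setdb1, Ehmt1 and Cbx5) were above every control and 1 (Zfp57) was below, where 28.8% and 18.3% of the 8876 tested genes averaging 10 CPM or more over controls did the same (34.2% and 16.9% of all tested genes). For dTAG replicate 2, 7 genes were below every control and 2 above, beside 41.4% and 38.4% of those 8876 genes (22.4% and 63.4% of all tested genes). For dTAG replicate 3 the counts were 8 below and 2 above, beside 42.7% and 49.1% (22.4% and 72.3% of all tested genes). Zfp57, lower in all 3 dTAG libraries, belonged to the 6.19% of the 8876 genes (3.22% of all tested) of which the same holds. As a share of the control mean, the median of the 10 genes was 104%, 82.3% and 47.1% by dTAG replicate, and the median over the 8876 genes was 102%, 97.1% and 110.2%. The 10th and 90th percentiles over those genes in dTAG replicate 3 were 14.9% and 443%, so Zfp809 and Atrx lay below the 10th and Daxx well inside the 90th.

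**Figure D2:**
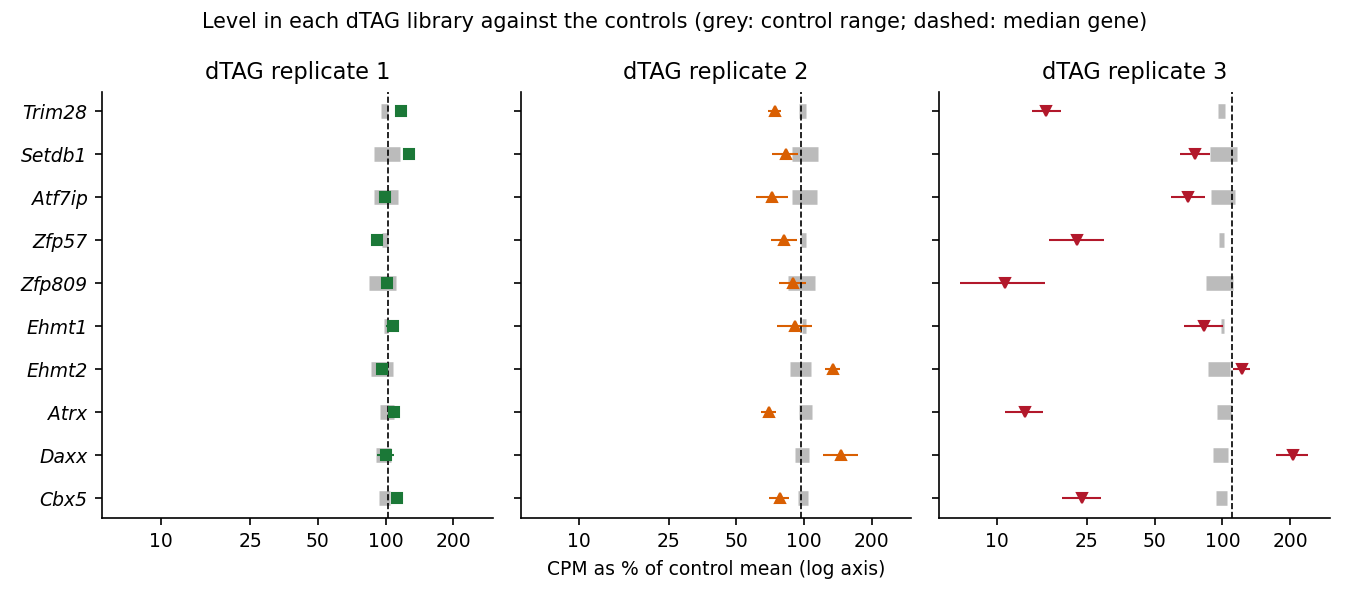
CPM of each gene in dTAG replicates 1, 2 and 3 as a percentage of its control mean (log axis), with 95% counting intervals as bars, the range of the 3 controls in grey and the median of the 8876 more abundant genes as a dashed line. In dTAG replicate 1 the genes lie between 91.7% and 128%, and in dTAG replicate 3 between 10.8% (Zfp809) and 205% (Daxx, which with TMM scaling lies below its controls).

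No gene of the 10 was called changed between dTAG and control over all 6 libraries. At an adjusted p under 0.05 (edgeR quasi-likelihood test with TMM scaling and Benjamini-Hochberg adjustment over 18116 tested genes), 0 of 10 passed, as did 0.0% of all tested genes. At an unadjusted p under 0.05 there were 0 of 10 as well, beside 23.2% of all tested genes. That share takes in genes of low level, whereas all 10 belong to the 8876 more abundant genes, for which it was not worked out. The 0 is therefore not read as a trait of the 10. DESeq2 and limma-voom each called 0 of 10 (of all genes, DESeq2 called 5086 and limma-voom 0). All 10 log2 fold changes were negative, from -1.03 for Zfp57 (SE 0.81, edgeR adjusted p = 0.443) to -0.23 for Daxx (SE 0.35, edgeR adjusted p = 0.629). Trim28 had -0.86 (SE 1.16, edgeR adjusted p = 0.590), Setdb1 -0.58 (SE 0.67, edgeR adjusted p = 0.544) and Atrx -0.97 (SE 1.10, edgeR adjusted p = 0.535). With standard errors of this size, a count of 0 does not show that levels stayed the same. The median log2 fold change of the 10 was -0.86, that of all tested genes 0.16 and that of the 8876 more abundant genes -0.60.

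The sign for Daxx and Ehmt2 rests on the scaling. TMM gave dTAG replicate 3 a factor of 2.49, against 0.727 to 0.789 in the controls, and on that scale all 10 genes lay under their lowest control in dTAG replicates 2 and 3. Daxx then stood at 53.8, 59.3 and 50.6 scaled CPM in the controls and 53.0, 49.6 and 37.0 in the dTAG libraries, and Ehmt2 at 315, 335 and 271 and at 287, 257 and 124. Zfp809, within its controls by CPM in dTAG replicate 2, stood there at 87.1 scaled CPM beside 137 to 167 in the controls. Ehmt1 stood at 51.2 and 24.6 scaled CPM in dTAG replicates 2 and 3 beside 87.4 to 92.5 in the controls. With library totals alone, the log2 fold changes were 0.66 for Daxx (edgeR adjusted p = 0.229) and 0.29 for Ehmt2 (edgeR adjusted p = 0.548), whereas the other 8 genes stayed negative, from -0.62 to -0.02.

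In the comparison of dTAG replicate 1 alone with the 3 controls, the 10 genes spanned log2 fold changes from -0.21 to 0.27. Setdb1 was highest at 0.27 (SE 0.14, edgeR adjusted p = 0.893), Trim28 had 0.14 (SE 0.09, edgeR adjusted p = 0.973) and Zfp57 was lowest at -0.21 (SE 0.15, edgeR adjusted p = 0.973). None of the 10 passed, beside 0.0882% of 18143 tested genes. The lone dTAG library is assumed in this fit to vary as the controls do. Without dTAG replicate 1, on the other hand, Atf7ip (log2 fold change -1.80, edgeR adjusted p = 0.0305) and Ehmt1 (-1.50, edgeR adjusted p = 0.0330) were called lower, 2 of 10 beside 46.7% of the 8876 more abundant genes and 19.8% of all tested genes. That fit keeps only the 2 shallow dTAG libraries, in which receptor genes, fibroblast markers and other lineage markers were higher, and the part of those counts in the result was not tested. In bulk RNA, fewer cells of a type and less RNA per cell cannot be told apart.

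Ratios between partners within a library do not depend on how libraries are scaled, so 4 were tested. Daxx to Atrx counts stood at 0.0883, 0.101 and 0.0887 across controls against 0.0856, 0.194 and 1.43 with dTAG. The ratio in the last library was 15.5 times the control mean, yet that of dTAG replicate 1 was under the lowest control, and the groups overlapped. Setdb1 to Trim28 ran from 0.197 to 0.239 in the controls and was 0.231, 0.238 and 0.972 in the dTAG libraries, so a departure was seen in dTAG replicate 3 and not in the other two. Ehmt1 to Ehmt2 was 0.277, 0.276 and 0.333 in the controls and 0.326, 0.199 and 0.198 in the dTAG libraries, which puts dTAG replicate 1 among the controls and the 2 shallow libraries together below them. Atf7ip to Setdb1 was 0.682 to 0.957 in the controls and 0.627, 0.705 and 0.753 in the dTAG libraries, and here dTAG replicate 3 was inside the control range. In exact two-sided permutation tests over the 6 libraries, p was 0.40 for Daxx to Atrx and 0.30 for each of the other 3, and the adjusted p over the 4 ratios was 0.40. With 3 libraries a group such a test cannot give less than 0.10. Set over Trim28 and not tested, Zfp57 stood at 0.163, 0.229 and 0.285 with dTAG beside 0.195 to 0.221 in the controls, Zfp809 at 0.170, 0.236 and 0.128 beside 0.174 to 0.214, and Cbx5 at 0.367, 0.401 and 0.547 beside 0.349 to 0.406.

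**Figure D3:**
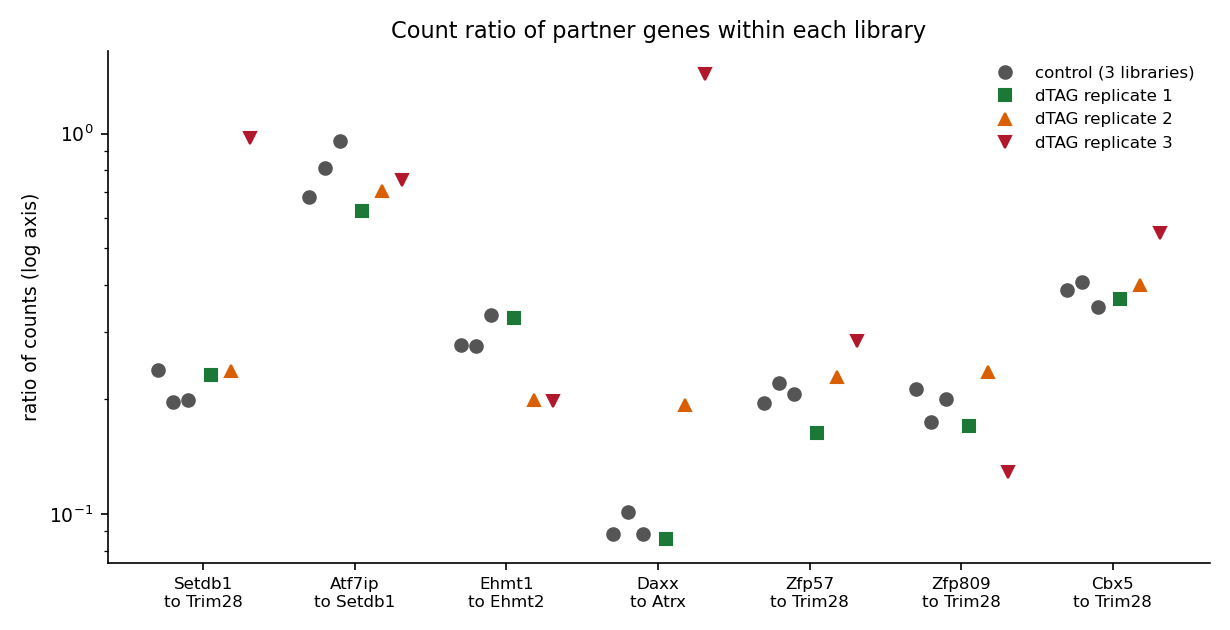
Ratio of counts of partner genes within each library (log axis), for the 3 controls (grey circles) and dTAG replicates 1 (green squares), 2 (orange upward triangles) and 3 (red downward triangles). Daxx to Atrx is 0.0856 in dTAG replicate 1 and 1.43 in dTAG replicate 3, Setdb1 to Trim28 is 0.231 and 0.972, while Atf7ip to Setdb1 stays between 0.627 and 0.957 in all 6 libraries.

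The controls alone give the resting levels. By CPM the mean order was Trim28 (598 ± 24.7, SD, n = 3), Atrx (442 ± 33.7), Ehmt2 (230.5 ± 27.3), Cbx5 (228 ± 12.8), Setdb1 (127 ± 17.8), Zfp57 (124 ± 3.73), Zfp809 (117 ± 16.3), Atf7ip (102 ± 13.1), Ehmt1 (67.5 ± 1.34) and Daxx (40.9 ± 3.28). Transcript lengths were not used, so this orders counts and not molecules. Ehmt2 and Cbx5 overlapped in range, as did Setdb1 with Zfp57, Zfp57 with Zfp809 and Zfp809 with Atf7ip, and the other neighbours were apart in all 3 libraries. Among all 26276 named rows Trim28 ranked 157th and Daxx 3733rd. The coefficient of variation over controls was 14.0% for Setdb1, 13.9% for Zfp809, 12.7% for Atf7ip and 11.9% for Ehmt2, where counting error alone gives 2.32%, 2.42%, 2.59% and 1.72%. For Ehmt1 it was 1.99%, below its counting error of 3.18%, and for Zfp57 it was 3.01% beside 2.34%.

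Sequence composition before the start differed among the 10 genes. G and C made up 46.4% of the 250 bases for Zfp57, 48.4% for Atrx and for Zfp809, 54.4% for Setdb1, 54.8% for Atf7ip, 59.2% for Cbx5, 62.0% for Trim28, 67.6% for Ehmt2, 69.2% for Ehmt1 and 70.4% for Daxx. Daxx, Ehmt1 and Ehmt2, the 3 highest in G and C, also stood highest in dTAG replicate 3 relative to the controls. Trim28 and Cbx5 stood lower there than Setdb1 and Atf7ip, although their windows held more G and C than those of Setdb1 and Atf7ip. Spearman's rho was 0.75 over these 10 genes and 0.13 over 6628 more abundant genes, both descriptions over points that share 1 shallow library. The wider check is void as a check on all such genes, since a window was at hand for 74.7% of 8876, and nothing particular to the 10 genes is read from their value. The letters TGCCGC, the core recognised by ZFP57 when methylated, occurred on either strand in 1 of the 10 windows, that of Trim28, and in 8.57% of all windows.

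**Figure D4:**
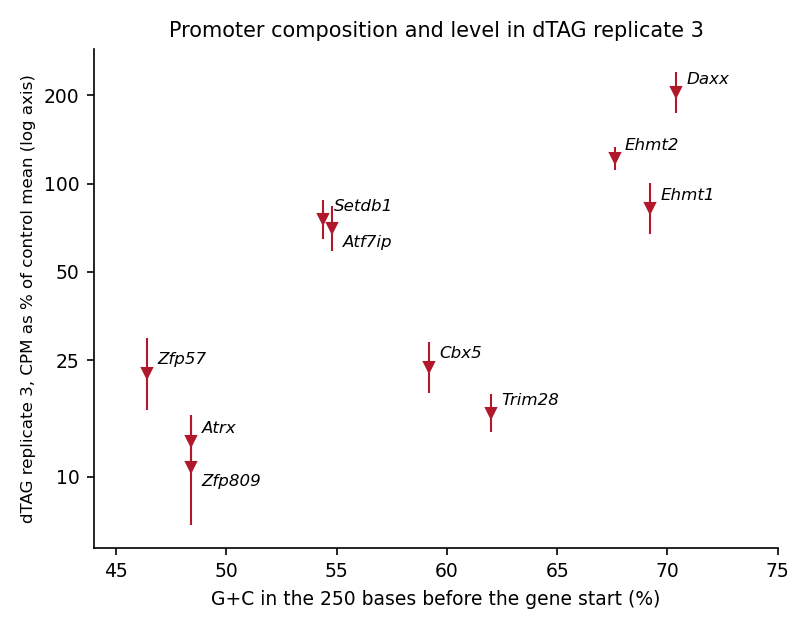
Share of G and C in the 250 bases before the gene start (%) against CPM in dTAG replicate 3 as a percentage of the control mean (log axis) for the 10 genes, with 95% counting intervals as bars. Daxx at 70.4% G and C stands at 205% of its controls (with TMM scaling it lies below them), and Atrx and Zfp809 at 48.4% stand at 13.2% and 10.8%. Trim28 (62.0% G and C) stands at 16.5% and Cbx5 (59.2%) at 23.8%, below Setdb1 and Atf7ip, whose windows hold less G and C.

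Among 43 further genes of the pathway, in 7 lists, 0 passed the edgeR test in either direction, as did 0.0% of all tested genes. At an unadjusted p under 0.05 there were 0 of 43, beside 23.2% of all tested genes. That share was not worked out for the 8876 more abundant genes, so the 0 is not read as a trait of the pathway. Of the 43 genes, 40 had negative log2 fold changes. Their median was -0.66, close to the -0.60 of the 8876 more abundant genes, to which 39 of the 43 belong, and beside 0.16 for all tested genes. In dTAG replicate 1 they stood near the controls, with list medians between 91.9% of the control mean for the 6 H3K9 demethylases and 113% for the 7 other KRAB zinc finger genes. In dTAG replicate 3 the lists spread out. The 7 HP1, HUSH and Morc genes, most of which act as readers of methylated H3K9 or enforce silencing beside it, had a median of 21.9%. Mphosph8, the chromodomain subunit of the HUSH complex, averaged 182 ± 13.9 CPM over controls (SD, n = 3) against 202, 144 and 32.002 CPM with dTAG, and Morc3, an ATPase that silences retroviruses with DAXX, averaged 167 ± 11.0 CPM (SD, n = 3) against 159, 115 and 34.8 CPM. Both resembled Trim28 and Atrx in that they were low in dTAG replicate 3 and not below their controls in dTAG replicate 1.

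The other H3K9 methyltransferase genes with their partners had the opposite position in dTAG replicate 3, with a median of 237% by CPM over 7 genes, although with TMM scaling their median log2 fold change was -0.26. The 2 most abundant of them stood near their controls there by CPM, and had negative log2 fold changes with TMM scaling (-0.34 for Zfp644 and -0.75 for Cdyl). Zfp644, a partner of EHMT1 and EHMT2, averaged 48.9 ± 1.52 CPM over controls (SD, n = 3) against 60.4, 66.1 and 48.6 CPM with dTAG, and Cdyl, a chromodomain corepressor, averaged 36.4 ± 5.21 CPM (SD, n = 3) against 31.9, 35.7 and 34.2 CPM. The 6 genes of H3.3 and its HIRA chaperone, which serves active genes where ATRX and DAXX serve heterochromatin, had a median of 170.2% by CPM and a median log2 fold change of -0.41 with TMM scaling. H3f3b averaged 182 ± 19.5 CPM over controls (SD, n = 3) against 201, 216 and 243 CPM with dTAG, and H3f3a averaged 161 ± 20.7 CPM (SD, n = 3) against 188, 175 and 154 CPM.

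The remaining 4 lists had medians below the control mean in dTAG replicate 3 by CPM. These were 57.3% for the demethylases, 33.1% for 6 SUMO and NuRD partners, 45.2% for 4 genes of DNA methylation in heterochromatin and 54.0% for the KRAB zinc fingers. Not every gene was lower. Below and above every control there stood 4 and 2 of the 6 demethylases, and 5 and 1 of the 7 KRAB zinc fingers. For SUMO and NuRD these counts were 6 and 0, and for DNA methylation 3 and 0. Among the 8876 more abundant genes 42.7% were below and 49.1% above (22.4% and 72.3% of all tested genes). Kdm3a and Kdm1a, which remove methyl groups from H3K9, had 194 ± 3.96 and 178 ± 14.8 CPM (SD, n = 3) in the controls. In the dTAG libraries Kdm3a had 179, 166 and 72.8 CPM and Kdm1a 190.1, 145 and 59.6 CPM. Chd4, the main ATPase of NuRD, averaged 537 ± 36.9 CPM (SD, n = 3) against 514, 410.01 and 142 CPM, and Dnmt1, which copies DNA methylation, averaged 294 ± 21.6 CPM (SD, n = 3) against 299.6, 247 and 126 CPM. Each of these 4 genes had its lowest value in dTAG replicate 3. Zfp600, from a family of closely similar zinc finger genes among which reads may be split, averaged 777 ± 64.6 CPM over controls (SD, n = 3) against 816, 466 and 37.0 CPM with dTAG.

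**Figure D5:**
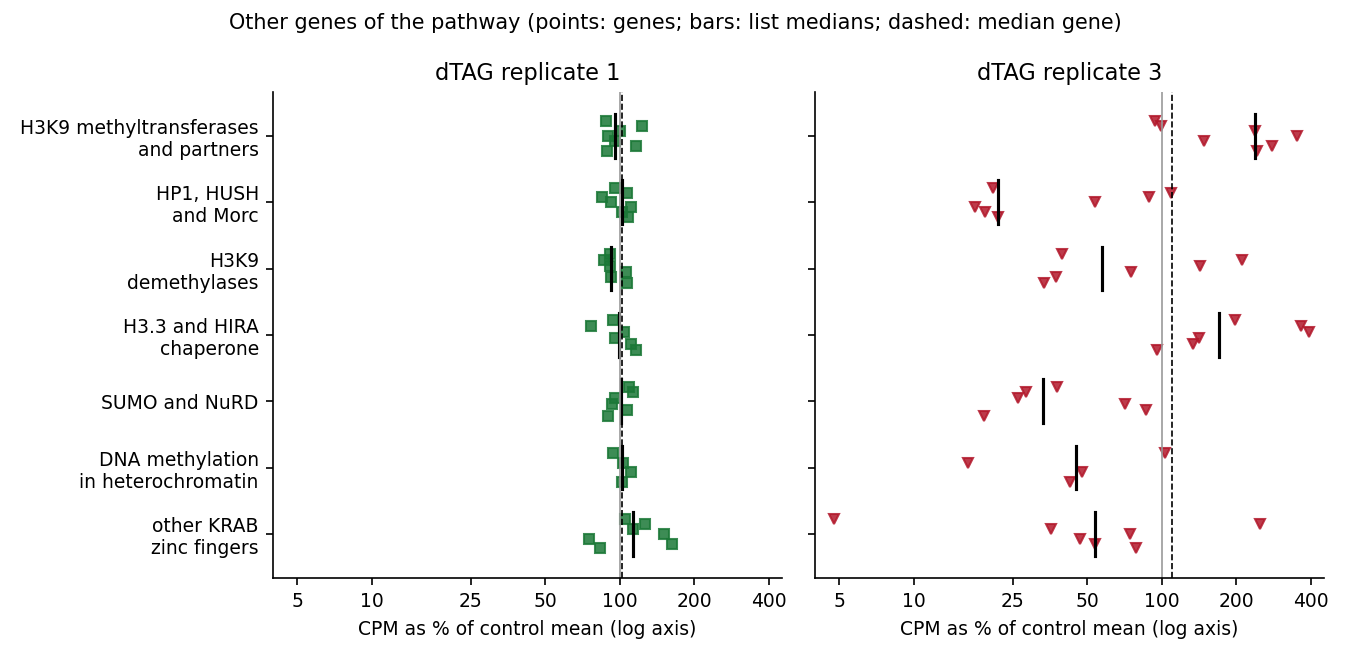
CPM in dTAG replicate 1 (left) and dTAG replicate 3 (right) as a percentage of the control mean (log axis) for 43 other genes of the pathway in 7 lists, with list medians as black bars, 100% as a grey line and the median of the 8876 more abundant genes as a dashed line. List medians lie between 91.9% and 113% in dTAG replicate 1 and between 21.9% (HP1, HUSH and Morc) and 237% (H3K9 methyltransferases and partners) in dTAG replicate 3.

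Genes linked to this machinery were looked at next. Of 13 imprinted genes 12 could be tested, and of 8 germline genes and 7 genes of the 2-cell-like state all could. In each list 0 passed the edgeR test, as did 0.0% of all tested genes. Median log2 fold changes were -0.49, -0.31 and -1.08, beside -0.60 for the 8876 more abundant genes, which take in 10, 5 and 6 members of these lists, and 0.16 for all tested genes. The list medians include Nnat, Airn, Slc25a31 and Bglap3, which passed the filter on low counts only with the dTAG libraries. Peg10, an imprinted retroelement-derived gene, averaged 643 ± 125 CPM over controls (SD, n = 3) against 689, 494 and 61.8 CPM with dTAG, and H19, an imprinted noncoding RNA, averaged 191 ± 39.9 CPM (SD, n = 3) against 207, 126 and 35.3 CPM. Both were inside the control range in dTAG replicate 1. They do not stand for their list in dTAG replicate 3, where by CPM 5 of the 13 imprinted genes were below every control and 8 above. Of the germline genes 4 were below and 4 above, and of the 2-cell-like genes 6 and 1. Among the 8876 more abundant genes 42.7% were below and 49.1% above (22.4% and 72.3% of all tested genes). The list medians there were 151%, 118% and 8.54% of the control mean, over genes with a control count. Dazl, an RNA-binding germ cell gene, averaged 84.2 ± 9.80 CPM (SD, n = 3) against 84.1, 57.7 and 20.4 CPM, and Ddx4, a germ cell helicase, averaged 50.3 ± 8.25 CPM (SD, n = 3) against 50.1, 82.1 and 13.8 CPM. Zscan4f, a transcription factor of the 2-cell-like state with near-identical copies that share reads, averaged 1148 ± 225 CPM (SD, n = 3) against 1167, 719 and 38.6 CPM.

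Tdrd1, a germline gene, had a positive log2 fold change and an unadjusted p under 0.05 in the edgeR test. The share of all tested genes under that threshold was 23.2%. No count at that threshold is given for these 3 lists. The imprinted Nnat and Airn, the germline Slc25a31 and the 2-cell-like Bglap3 entered the test only with the dTAG libraries. Slc25a31 was under the filter on low counts in control replicate 1 (0.140 CPM). Bglap3 was under it in control replicates 2 and 3 (0.383 and 0.213 CPM). Nnat averaged 0.610 ± 0.105 CPM over controls (SD, n = 3) against 1.08, 10.3 and 35.9 CPM with dTAG. It was under the filter on low counts in every control and entered the test only through the dTAG libraries, so it had to differ, and its test is not given. Airn, which runs antisense to Igf2r, averaged 1.19 ± 0.693 CPM (SD, n = 3) against 1.70, 12.7 and 26.5 CPM, and Tdrd1 averaged 4.48 ± 1.41 CPM (SD, n = 3) against 4.88, 23.5 and 72.8 CPM. Airn was under the same filter in control replicate 1, at 0.702 CPM, so it too passed only with the dTAG libraries, and its test is not given. In dTAG replicate 1 Airn and Tdrd1 were within the controls and Nnat just above them, and all 3 were high where receptor genes also had counts, and the part of such counts in these values was not tested.

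The 5 genes whose course over the 6 libraries lay nearest to that of Trim28, among 8291 compared by Euclidean distance of log2 ratios of CPM + 1 to the control mean, were Morf4l2, Ccna2, Eif4g2, Naca and Suz12, at distances of 0.0960 to 0.132. Morf4l2, a chromatin factor, averaged 188 ± 9.78 CPM over controls (SD, n = 3) against 221, 142 and 28.7 CPM with dTAG. Suz12, a core Polycomb subunit, averaged 254 ± 10.3 CPM (SD, n = 3) against 278, 196 and 39.7 CPM. Of the other genes described here, Atrx ranked 145th by this distance, Cbx5 380th, Zfp57 459th and Zfp809 498th, whereas Atf7ip ranked 2625th, Setdb1 2785th, Ehmt1 3044th, Ehmt2 4373rd and Daxx 5778th. The distances rest largely on dTAG replicate 3, the shallowest library. There the log2 ratio of CPM to the control mean was -2.60 for Trim28 and -0.40 for Setdb1, whose distance over all 6 libraries was 2.21.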

How the data were processed

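Of 89 samples in the series, the 6 RNA-seq libraries were used and 83 were not analysed here. Raw read counts for each gene, as whole numbers, were deposited by the authors. The submitters' processing notes name STAR 2.7.2b, limma, edgeR, featureCounts and the mm10 build, and the sources used here leave their settings, annotation and use of strand unsaid. Titles placed samples in groups and matched columns to samples. Per the labels' protocols, ERCC RNA was added before stranded library preparation. The 903 rows with no name held 2.20% to 2.37% of counts in the controls and 2.33%, 6.67% and 14.6% in dTAG replicates 1, 2 and 3, and were left out. CPM are per 1000000 counts in named genes. A count of 0 allows 3 counts: at most 0.213 CPM for a control and 0.232, 1.41 and 1.66 CPM by dTAG replicate. Counting intervals are exact Poisson at 95%.

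Tests used edgeR 4.0.16 in R 4.3.3 (glmQLFit, glmQLFTest, group alone, TMM, filterByExpr with minimum count 10 and total 15; all 10 genes passed this filter), with DESeq2 1.42.0 and limma 3.58.1 (voom) as alternatives, and scripts were tested on simulated data. Standard errors come from the fold change and F statistic. Levels per coding length, as planned, were replaced by CPM and by ratios of counts between partner genes within a library, since no lengths were used. The plan gave no test for these ratios. The members and lists were chosen with earlier results of these data known. Genes are named by rule: the 10, the 5 nearest to Trim28, and in each list the genes called. Where no gene of a list was called, these were the 2 of highest control level, of which examples are given. Col3a1, Neurod1, Nnat, Airn, Tdrd1, Slc25a31 and Bglap3 were named after their values were seen. RefSeq windows (GRCm38.p6) were matched by symbol for all 10 genes. Same-numbered libraries did not deviate together by the check given in the closing section.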

Additional observations from a re-analysis of the deposited data

Results flagged for a closer look

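Rows with no gene name, which enter no comparison, held 6.67% of the counts in dTAG replicate 2 and 14.6% in dTAG replicate 3, above the 2.20% to 2.37% of the controls. None of the 10 genes is among these rows, and they are outside the CPM denominator.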

How the results depend on the processing

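The count of genes called over the whole table was 0 in the analysis reported above and changed with the choice made: 1398 with no filter on low counts, 5086 with DESeq2, 13 with the replicate block and 16 with dTAG replicate 1 alone, and from 0 to 13222 when each library was left out in turn, the last without dTAG replicate 1. For the 10 genes the count called stayed 0 under these settings except without dTAG replicate 1 (range 0 to 2 over the left-out libraries). The cause was not tested. Of 140 log2 fold changes over 14 settings, 131 kept their direction and side of the threshold, 2 passed it and 7 turned: with library totals alone Ehmt2 to 0.29 and Daxx to 0.66, and with dTAG replicate 1 alone Trim28 to 0.14, Setdb1 to 0.27, Ehmt1 to 0.020, Atrx to 0.034 and Cbx5 to 0.089, where the alternative leaves out the 2 libraries that were low. The pairing could not be taken from the numbers, as same-numbered libraries had correlations of deviations of 0.03, -0.03 and 0.03, and with the replicate block the 10 genes ran from -1.74 to -0.24, none called. Control levels moved by less than 1 SD in 39 of 40 settings. Most of these settings leave out 1 of the 3 controls, which cannot move their mean by 1 SD, so the count shows little. With all rows as the denominator, the mean for Ehmt1 moved by more than 1 SD, to 65.9 CPM. Against the highest control in place of the mean, the log2 ratio in dTAG replicate 1 became -0.029 for Ehmt1 to Ehmt2, -0.24 for Daxx to Atrx and -0.047 for Setdb1 to Trim28, and against the lowest it became -0.12 for Atf7ip to Setdb1. Depth limits dTAG replicates 2 and 3 most: Zfp809 rests on 23 counts and Zfp57 on 51 in the last.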
